A study of Rattus norvegicus with 8 samples.

Results

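The genes described here encode the membrane carriers that move amino acids and neurotransmitters in and out of cells, synaptic vesicles and lysosomes. They were taken as every non-control probe whose RefSeq accession maps to a symbol of the solute carrier families SLC1, SLC6, SLC7, SLC17, SLC18, SLC32 and SLC38. That gave 66 probes for 57 genes, out of 41012 non-control probes on the array, of which 15184 could be given a symbol. The symbol rule also caught Slc7a6os, a gene named for its place opposite Slc7a6 and no carrier of that family by name. RNA came from the hippocampus of 8 male Wistar rats, 1 Agilent 1-colour array per rat. The 4 CCH rats ate a standard feed, CE-2, with 0.1% coral calcium hydride (CCH) given as the feed additive, and the 4 control rats ate CE-2 alone. Rats of both groups were 6 weeks old at assignment and 8 weeks old at the end. Plain coral calcium was also obtained for the study, and no sample is labelled with it. The free-text sample descriptions speak of a lesion model with drug injections, against the titles and the treatment labels, from which the groups were taken.

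Each value below is a scaled signal, the processed spot intensity as a percentage of that array's own 75th percentile. Differences are on the log2 scale, CCH minus control, with the standard error (SE) and an adjusted p from limma, a linear model fitted to all 31618 tested probes at once with Benjamini-Hochberg adjustment over all of them (n = 4 arrays per group). Testing required a spot well above background on 4 or more of the 8 arrays. The number of arrays limits the precision. The 4 CCH arrays shared slide 2 and its scan, and the 4 control arrays shared slide 1 and its scan, so slide, scan and feed cannot be told apart in any comparison. The 75th percentile itself ran from 641.5 to 881.6 on CCH arrays and from 563.4 to 699.8 on control arrays (two-sided exact permutation p = 0.0857). Hippocampal neuron markers were present, with 14 of 16 tested and every one of these well above background on all 8 arrays. CCH arrays 2 and 4 were low in choroid plexus markers, the genes of the tissue that makes cerebrospinal fluid, with scores of -3.37 and -3.52 against -0.67 to 1.99 on the other 6 arrays. In bulk tissue, fewer cells of a type and less RNA per cell cannot be told apart.

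Amino acid transmission depends on these carriers at each step. Vesicular carriers load glutamate, GABA, glycine, monoamines and acetylcholine into synaptic vesicles, and plasma membrane carriers of astrocytes and neurons clear the transmitter from the cleft after release. Astrocytes turn glutamate into glutamine, and SLC38 carriers pass glutamine back to neurons as the precursor for new transmitter. SLC7 carriers exchange large neutral and cationic amino acids, several of them only when paired with a heavy chain of the SLC3 family.

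Of the 66 probes, 54 for 46 genes passed the filter and 1 was called at an adjusted p under 0.05, that of Slc38a7, which was lower in CCH. Over all tested probes 0.174% were called, 0.0759% higher and 0.098% lower in CCH. The 54 probes were split into 30 higher and 24 lower in CCH with a median log2 difference of 0.04, beside a median of 0.03 over all 31618 tested probes, of which 55.1% were higher. At an unadjusted p under 0.05 there were 6 of the 54 (11.1%), 2 higher and 4 lower, beside 15.4% of all tested probes (8.79% higher and 6.59% lower). The groups did not overlap in 4 of the 54 (7.41%), 1 higher and 3 lower in CCH, beside 11.3% of all tested probes (6.59% higher and 4.7% lower). Both shares were below the background. The split among the carriers was 20 higher and 34 lower with normexp correction, 24 higher and 30 lower with array weights, and 23 higher and 30 lower without CCH array 1. With normexp correction the median over all tested probes was -0.07, and that over the carriers -0.08. Slc38a7 was also the 1 carrier probe called with normexp correction, where 0.778% of all tested probes were called.

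**Figure D1:**
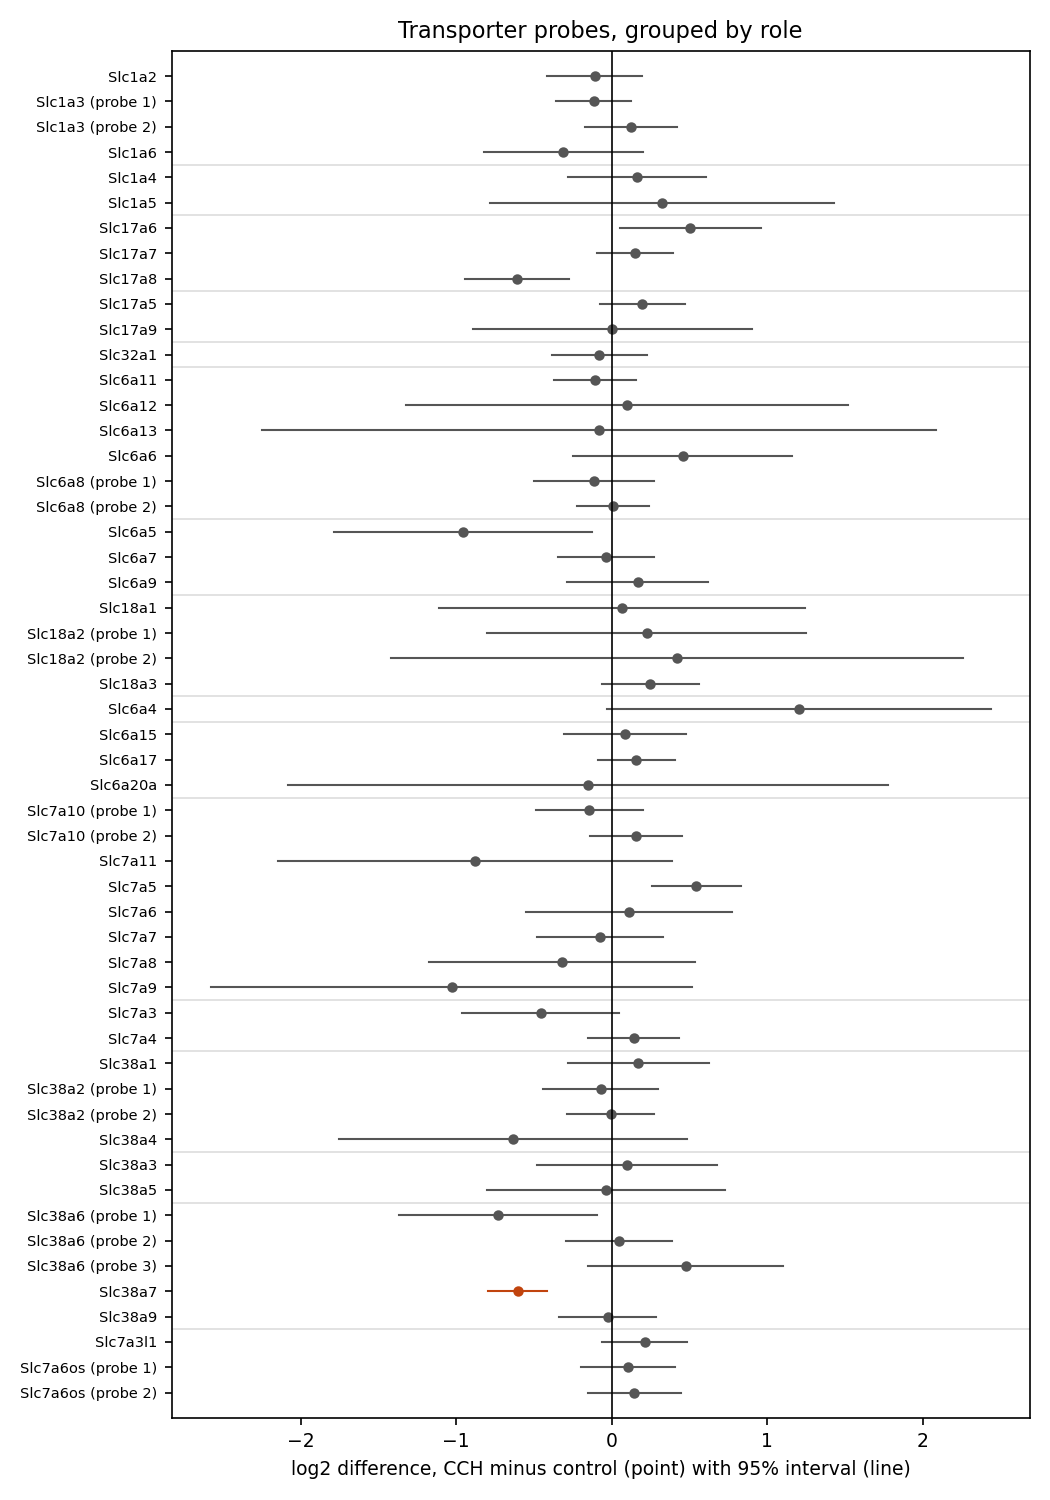
Log2 difference, CCH minus control, for 53 of the 54 tested probes (points) with its 95% interval (lines), n = 4 arrays per group, grouped by carrier role with grey lines between roles. The red point, Slc38a7 at -0.60, is the 1 called probe, and the intervals of Slc6a13, Slc6a20a and Slc7a9 are among the widest.

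Slc38a7 encodes SNAT7, a carrier that exports glutamine from lysosomes in human cells. Its probe A_44_P555028 stood at 57.9, 58, 57.2 and 50.1% on CCH arrays 1 to 4, against 86.8, 84.7, 84.1 and 83.3% on control arrays 1 to 4. The control arrays lay within a few percent of each other and all 4 CCH arrays lay below them, with CCH array 4 the lowest. The difference was -0.60 ± 0.08 (SE; limma adjusted p = 0.0463), a 1.52-fold decrease. Before scaling the signals overlapped, at 510.8, 433.9, 375.4 and 321.2 on CCH arrays 1 to 4, against 607.5, 477.3, 501.7 and 485 on control arrays 1 to 4. With 1 array left out at a time the difference stayed between -0.62 and -0.55. The call held only without CCH array 1 (adjusted p = 0.0354), where 2.24% of all tested probes were called. It ended in the other 7 cases (adjusted p of 0.109 to 0.146), where 0 or 1 of all tested probes was called. The call also ended with no detection filter (adjusted p = 0.0673), where 0.0707% of all tested probes were called. With a choroid plexus covariate it ended at -0.57 (adjusted p = 0.158), and 1 of all tested probes was called. Without both CCH arrays low in choroid plexus markers it ended at -0.56 (adjusted p = 0.314), and 0 of all tested probes were called. Hippocampal neuron markers scored -0.068 to 0.122 on CCH arrays and -0.113 to 0.082 on control arrays (two-sided exact permutation p = 0.314). Oligodendrocyte markers are given as the list with the smallest p of the 10 marker lists. They scored -0.004 to 0.294 on CCH arrays and -0.229 to -0.019 on control arrays. Their two-sided exact permutation p was 0.0286, the smallest possible for 4 against 4 arrays, or 0.286 when adjusted over the 10 lists. Of 13 tested oligodendrocyte markers, 12 were higher in CCH and none was at 0. Their part in the result was not tested.

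Slc7a5 encodes LAT1, the exchanger that carries large neutral amino acids across the blood-brain barrier. Its probe A_44_P380575 stood at 44.5, 65, 49.5 and 49.1% on CCH arrays 1 to 4, against 36.2, 37.1, 33.2 and 35.1% on control arrays 1 to 4. Every CCH value exceeded every control value, and CCH array 2 was highest. Unscaled signals did not overlap either, at 315.2 to 486.5 on CCH arrays and 197.9 to 253.4 on control arrays. The difference was 0.54 ± 0.13 (SE; limma adjusted p = 0.0997), which did not pass. It passed without CCH array 1, at 0.61 (adjusted p = 0.0496), where 2.24% of all tested probes were called, and with array weights, at 0.62 (adjusted p = 0.0314), where 4.09% were called. Slc3a2, chosen after its values were seen, is the heavy chain that LAT1 needs at the membrane. It stood at 1050, 696, 630 and 658% on CCH arrays 1 to 4, against 766, 643, 796 and 688% on control arrays 1 to 4, a difference of 0.04 ± 0.17 (SE; limma adjusted p = 0.939), and its groups overlapped. Endothelial and pericyte markers, of the vessel cells where LAT1 is known to be abundant, scored 0.19, 0.21, -0.02 and -0.19 on CCH arrays 1 to 4, against 0.34, -0.09, 0.23 and -0.67 on control arrays 1 to 4, with 9 of 14 higher in CCH and none at 0. Those scores overlapped between the groups, and control array 1 had the highest. On control array 4, which had the lowest score, Kcnj8 stood at 4.59%, against 113 to 174% on the other arrays. Cldn5 was also lowest there, at 526% against 579 to 774%, and Kdr, at 684%, lay within the range of the other arrays.

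The promoters of the called probe's gene and of Slc7a5, the probe with the next smallest p, are shown because the results above turn on them. Each run of 300 bases is RefSeq sequence of the GRCr8 assembly, 250 bases before to 50 after the gene's start. It is given 5′ to 3′ on the gene's strand, with capitals marking the motifs CACGTG (the E-box core), TGATGNAAN (the amino acid response element bound by ATF4), GGGCGG (the GC box) and TATAAA, searched on both strands.
Slc38a7 (chr19:9215128-9215427, plus strand): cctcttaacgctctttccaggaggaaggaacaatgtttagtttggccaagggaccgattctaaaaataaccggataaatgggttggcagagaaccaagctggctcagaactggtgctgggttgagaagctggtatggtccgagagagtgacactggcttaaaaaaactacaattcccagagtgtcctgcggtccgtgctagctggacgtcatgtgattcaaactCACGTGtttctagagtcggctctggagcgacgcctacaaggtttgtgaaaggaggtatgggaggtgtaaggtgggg
Slc7a5 (chr19:66872363-66872662, minus strand): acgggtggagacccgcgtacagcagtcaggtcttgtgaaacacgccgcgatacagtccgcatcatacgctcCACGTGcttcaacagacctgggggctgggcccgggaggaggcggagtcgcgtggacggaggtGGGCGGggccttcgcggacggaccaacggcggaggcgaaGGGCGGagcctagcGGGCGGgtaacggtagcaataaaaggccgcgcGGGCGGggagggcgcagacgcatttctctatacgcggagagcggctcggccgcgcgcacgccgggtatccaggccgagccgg
Slc38a7 held CACGTG once, beginning 26 bases before the start. Slc7a5 held CACGTG beginning 179 bases before the start and GGGCGG at 4 places. The printed motifs did not overlap each other. CACGTG was in 6.42% of 33469 promoters of this length and in 6 of the 42 carrier genes with a promoter in the table. GGGCGG was in 33.1% of all promoters and in 19 of the 42, TATAAA in 14.2% and in 2 of the 42, and TGATGNAAN in 3.97% and in 2 of the 42. A match describes the letters and not binding.

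**Figure D2:**
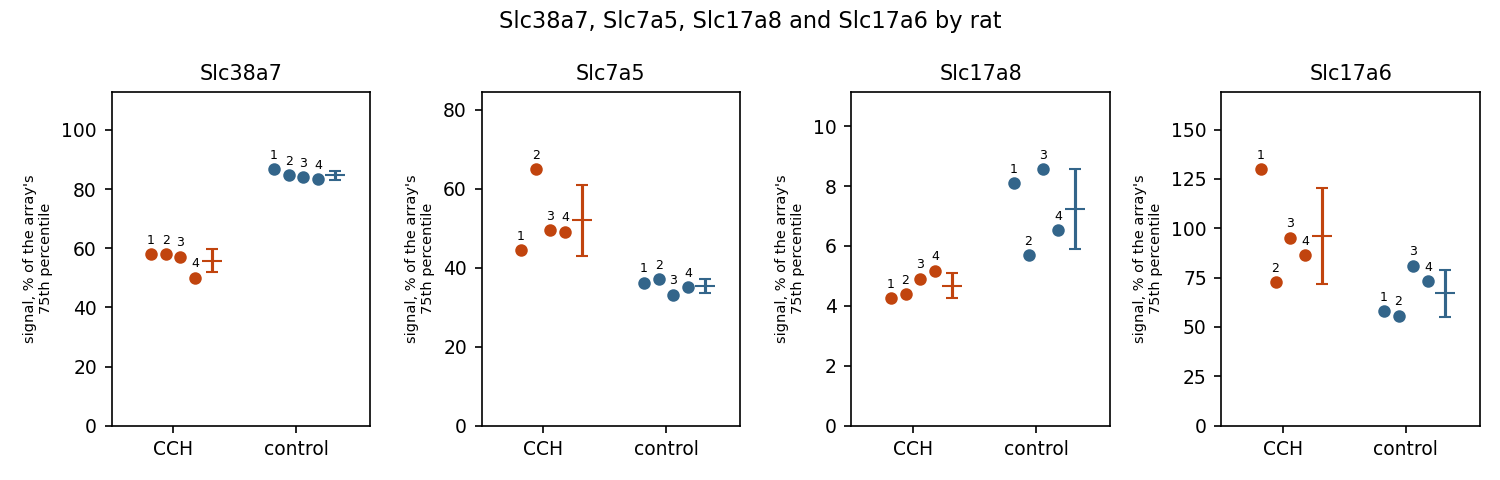
Scaled signal (percent of the array's 75th percentile, linear axis from 0) of Slc38a7, Slc7a5, Slc17a8 and Slc17a6 for each CCH array (left, red) and control array (right, blue), numbered by replicate, with mean ± SD at the right of each group. The groups do not overlap for Slc38a7, Slc7a5 and Slc17a8 and overlap for Slc17a6.

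The 3 vesicular glutamate carriers gave differences of both signs and no call. Slc17a8 encodes VGLUT3, found in some interneurons and serotonin neurons, and stood at 4.26, 4.38, 4.91 and 5.17% on CCH arrays 1 to 4, against 8.09, 5.7, 8.57 and 6.53% on control arrays 1 to 4. All 4 CCH arrays lay below all 4 control arrays. Unscaled signals overlapped, at 32.24 to 37.55 on CCH arrays and 32.14 to 56.61 on control arrays, with control array 2 the lowest. The difference was -0.61 ± 0.15 (SE; limma adjusted p = 0.107), and -0.35 with normexp correction. Interneuron markers scored -0.14, 0.05, -0.21 and -0.07 on CCH arrays 1 to 4, against 0.02, 0.10, 0.10 and 0.15 on control arrays 1 to 4 (two-sided exact permutation p = 0.0571, or 0.286 when adjusted over the 10 marker lists), with 7 of 10 lower in CCH and none at 0, and their part in the result was not tested. Slc17a6 encodes VGLUT2, the vesicular carrier of thalamic and other subcortical glutamate neurons, and was printed in 10 spots whose signals varied by 3.24% to 7.5% (coefficient of variation) within an array. It stood at 130, 72.6, 95.1 and 86.3% on CCH arrays 1 to 4, against 58.1, 55.7, 81 and 73.1% on control arrays 1 to 4. CCH array 1 was the highest, and CCH array 2 fell among the controls. The difference was 0.50 ± 0.20 (SE; limma adjusted p = 0.279), at 0.35 without CCH array 1. Thalamus and habenula markers, of which 4 of 10 were tested, scored 0.92 on CCH array 1 and -0.62 to 0.43 on the other 7 arrays. Among them Chrna3 stood at 69.2% on CCH array 1 and at 1.73 to 5.18% on the other 7 arrays. Lef1 was lowest on CCH array 1, at 7.63%, and Calb2 and Prkcd, at 265 and 228%, lay within the range of the other arrays. The part of these markers was not tested. Slc17a7 encodes VGLUT1, the main vesicular carrier of hippocampal glutamate neurons, and stood at 134, 118, 106 and 125% on CCH arrays 1 to 4, against 109, 123, 101 and 104% on control arrays 1 to 4. Its groups overlapped, and the difference was 0.15 ± 0.11 (SE; limma adjusted p = 0.557).

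Glutamate clearance genes gave no call. Slc1a2, the astrocyte carrier GLT-1 that clears most synaptic glutamate, stood at 712, 532, 498 and 589% on CCH arrays 1 to 4, against 670, 691, 561 and 579% on control arrays 1 to 4. The groups overlapped, CCH array 1 being highest and CCH array 3 lowest of all, and the difference was -0.11 ± 0.13 (SE; limma adjusted p = 0.753; 95% interval -0.41 to 0.20). Slc1a3, the astrocyte carrier GLAST, stood at 5030, 4930, 4380 and 5450% on CCH arrays 1 to 4, against 5170, 5870, 4790 and 5650% on control arrays 1 to 4 on its brighter probe. That probe differed by -0.12 ± 0.10 and the dimmer one by 0.12 ± 0.13 (SE), so the 2 probes had opposite signs and both had overlapping groups. Slc1a6, the carrier EAAT4 best known from Purkinje cells, stood at 32.5, 46, 35.9 and 55.8% on CCH arrays 1 to 4, against 43.3, 40.8, 58.2 and 68.9% on control arrays 1 to 4, with a difference of -0.31 ± 0.22 (SE; limma adjusted p = 0.563) and overlapping groups. The neutral amino acid exchangers Slc1a4 and Slc1a5 differed by 0.16 ± 0.19 and 0.32 ± 0.48 (SE). Slc1a1, the neuronal carrier EAAT3, was not analysed here.

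Genes of GABA handling gave no call either. Slc32a1 encodes VGAT, which fills inhibitory vesicles with GABA and glycine, and stood at 870, 1080, 926 and 1040% on CCH arrays 1 to 4, against 896, 1060, 937 and 1270% on control arrays 1 to 4, with control array 4 highest and the other arrays interleaved. The difference was -0.08 ± 0.13 (SE; limma adjusted p = 0.824; 95% interval -0.38 to 0.22). Slc6a11, the astrocyte GABA carrier GAT3, stood at 7.78, 7.24, 6.39 and 7.53% on CCH arrays 1 to 4, against 6.63, 8.83, 7.53 and 8.29% on control arrays 1 to 4, a difference of -0.11 ± 0.12 (SE; limma adjusted p = 0.716) with overlapping groups.

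**Figure D3:**
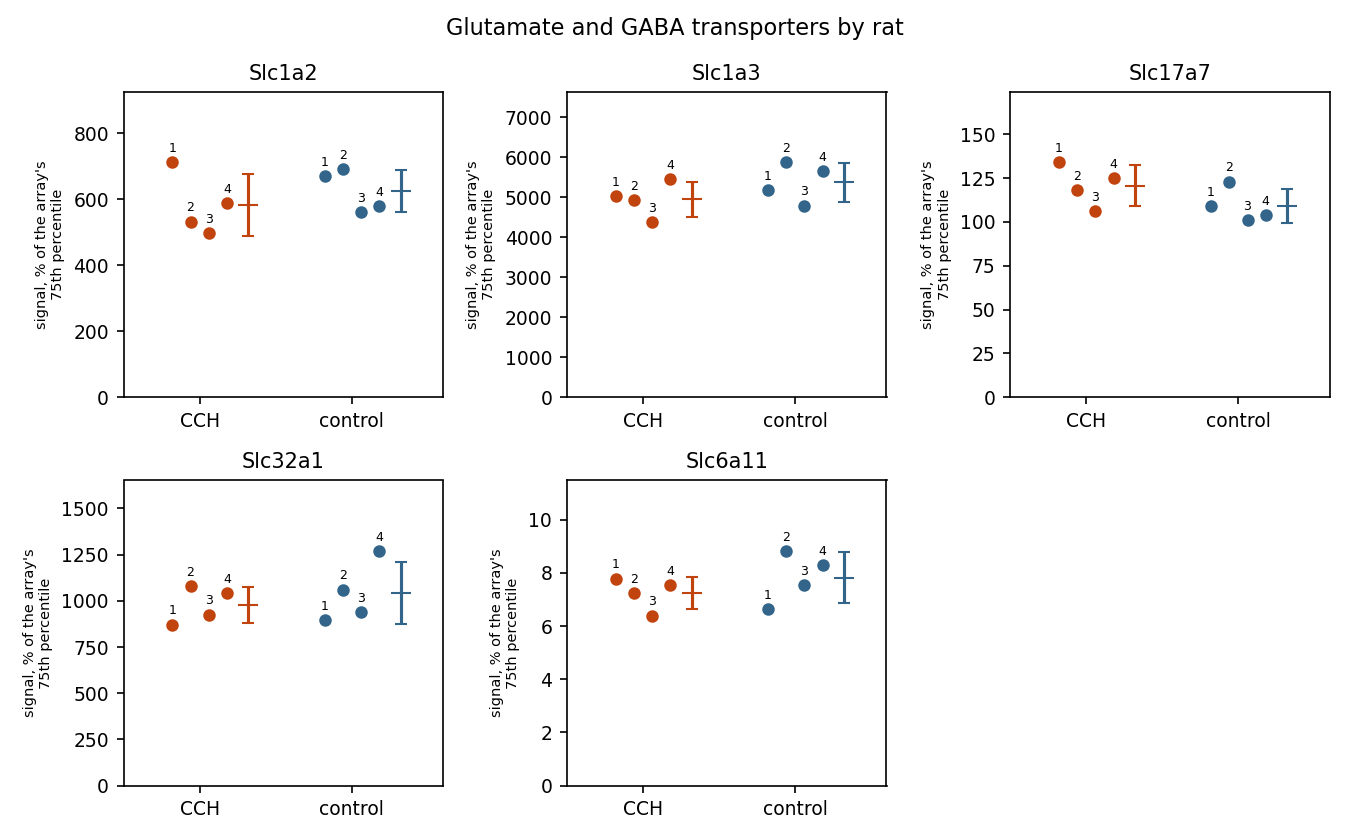
Scaled signal (percent of the array's 75th percentile, linear axis from 0) of the glutamate carriers Slc1a2, Slc1a3 (brighter probe) and Slc17a7 and the GABA carriers Slc32a1 and Slc6a11 for each CCH array (left, red) and control array (right, blue), numbered by replicate, with mean ± SD. In all 5 panels the groups overlap.

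Glycine, proline and related carriers held 1 probe with a small unadjusted p. Slc6a5 encodes GlyT2, the carrier of glycine neurons in brainstem and spinal cord, and stood at 3.38, 2.73, 3.83 and 8.21% on CCH arrays 1 to 4, against 4.94, 9.45, 10.5 and 8.35% on control arrays 1 to 4. CCH arrays 1 to 3 lay below every control array while CCH array 4 lay among them. The difference was -0.96 ± 0.36 (SE; limma adjusted p = 0.264), and -0.46 with normexp correction. Slc6a9 encodes GlyT1, the glycine carrier of glia, and stood at 36.2, 20.8, 19.2 and 19.6% on CCH arrays 1 to 4, against 20.5, 20.6, 20.9 and 20.3% on control arrays 1 to 4. All arrays but CCH array 1 lay within a narrow band. The difference was 0.17 ± 0.20 (SE; limma adjusted p = 0.744), and -0.05 without CCH array 1. The proline carrier Slc6a7 differed by -0.04 ± 0.13 (SE). The creatine carrier Slc6a8 differed by 0.01 ± 0.10 on 1 probe and by -0.11 ± 0.16 (SE) on the other, where the spot on CCH array 2 carried an outlier mark and was set to missing.

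Monoamine and acetylcholine carriers were dim or uneven between rats. Slc6a4, the serotonin carrier, had 2 probes, of which only A_44_P477871 was tested, well above background on 3 CCH arrays and 1 control array. It stood at 1.34, 1.12, 0.644 and 3.48% on CCH arrays 1 to 4, against 0.579, 0.382, 1.24 and 0.436% on control arrays 1 to 4. CCH array 4 was the highest, and control array 3 lay among the CCH arrays. The difference of 1.20 ± 0.54 (SE; limma adjusted p = 0.337) was -0.11 with normexp correction. Slc18a2, the vesicular monoamine carrier VMAT2, stood at 28.3, 25.7, 10.1 and 9.46% on CCH arrays 1 to 4, against 10, 10.9, 13.4 and 25.7% on control arrays 1 to 4 on its brighter probe. CCH arrays 1 and 2 and control array 4 were high and the other 5 arrays low, and the dimmer probe was highest on the same 3 arrays. The differences were 0.22 ± 0.45 and 0.42 ± 0.81 (SE; limma adjusted p of 0.856 and 0.850). Both Slc18a2 probes turned sign without CCH array 1, to -0.042 and -0.0726, and were at 0.00347 and -0.00996 without CCH array 2. Of 11 markers of monoamine and acetylcholine neurons 7 were tested, none of them an acetylcholine marker. They scored 1.06 on CCH array 1 and -0.42 to 0.40 on the other 7. Ddc, which makes dopamine and serotonin from their precursors, stood at 2710, 531, 460 and 388% on CCH arrays 1 to 4, against 318, 380, 855 and 352% on control arrays 1 to 4. Gch1 stood at 219% on CCH array 1 and at 1.5 to 28.1% on the other 7, and Dbh was also highest on CCH array 1, at 1.98%. Tph2 and Nr4a2 were lowest on that array, at 5.51 and 95%, and Th and Hdc were neither highest nor lowest there. The part of these markers was not tested. Slc18a3, the vesicular acetylcholine carrier VAChT, stood at 16.2, 16.2, 12.1 and 17% on CCH arrays 1 to 4, against 11.6, 12.6, 12.2 and 15.1% on control arrays 1 to 4. The groups overlapped, and the difference was 0.25 ± 0.14 (SE; limma adjusted p = 0.441), and 0.08 with normexp correction. Slc6a3, the dopamine carrier, was not analysed here.

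Several carriers varied more within a group than between the feeds. The range over the 8 arrays, which takes in both feeds, exceeded a log2 of 2 in 11 of the 54 tested carrier probes (20.4%). Of all tested probes 5.34% did so, and the median range was 0.88 beside 0.67. The median SD within a group was 0.27 beside 0.20. The 11 included dim probes, those of Slc6a4 (0.382 to 3.48%), Slc17a9 (0.695 to 2.98%) and the dimmer Slc18a2 probe (0.544 to 4.47%). The set of all tested probes was not matched to the carriers in signal. Slc6a13 encodes GAT2, a GABA carrier known from the membranes around the brain, and stood at 90.8, 116, 73 and 51.5% on CCH arrays 1 to 4, against 369, 28.1, 253 and 18.9% on control arrays 1 to 4. Control arrays 1 and 3 were the highest of all 8 and control arrays 2 and 4 the lowest, a range of 4.29 on the log2 scale, with the CCH arrays between them. Slc6a20a, a proline carrier known from choroid plexus and meninges, stood at 62, 63.3, 31.7 and 23.5% on CCH arrays 1 to 4, against 174, 17.5, 109 and 13.5% on control arrays 1 to 4, and its arrays fell in the same order as those of Slc6a13. The differences between feeds were -0.08 ± 0.95 for Slc6a13 and -0.15 ± 0.84 for Slc6a20a (SE; limma adjusted p of 0.979 and 0.955), and with 1 control array left out they ran from -0.80 to 0.63 and from -0.75 to 0.49. Slc7a9, a cystine carrier of kidney and gut, stood at 1.96, 1.61, 2.07 and 1.54% on CCH arrays 1 to 4, against 12.6, 1.74, 6.46 and 1.23% on control arrays 1 to 4, high on control arrays 1 and 3 alone, with a difference of -1.03 ± 0.68 (SE; limma adjusted p = 0.522; -0.43 without control array 1). The betaine and GABA carrier Slc6a12, named here after its values were seen, stood at 8.96, 4.09, 3.47 and 2.02% on CCH arrays 1 to 4, against 8.74, 2.71, 5.77 and 1.43% on control arrays 1 to 4, highest on CCH array 1 and control arrays 1 and 3, with a difference of 0.10 ± 0.62 (SE).

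Meningeal and fibroblast markers varied in the same way. All 15 were tested and none was at 0, and their score was 0.20, 0.45, -0.01 and -0.90 on CCH arrays 1 to 4, against 1.75, -1.41, 1.07 and -1.15 on control arrays 1 to 4, with control arrays 1 and 3 highest and control arrays 2 and 4 lowest, as for Slc6a13. Choroid plexus markers followed another order, with a score of 1.22, -3.37, 1.52 and -3.52 on CCH arrays 1 to 4, against 1.99, -0.67, 1.70 and 1.15 on control arrays 1 to 4. On CCH arrays 2 and 4, where that score was lowest, Slc6a13 was at its highest and its lowest CCH value. Control array 2, lowest of the control arrays in that score, was low in Slc6a13 and Slc6a20a. The part of meningeal and choroid plexus tissue in these values was not tested.

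**Figure D4:**
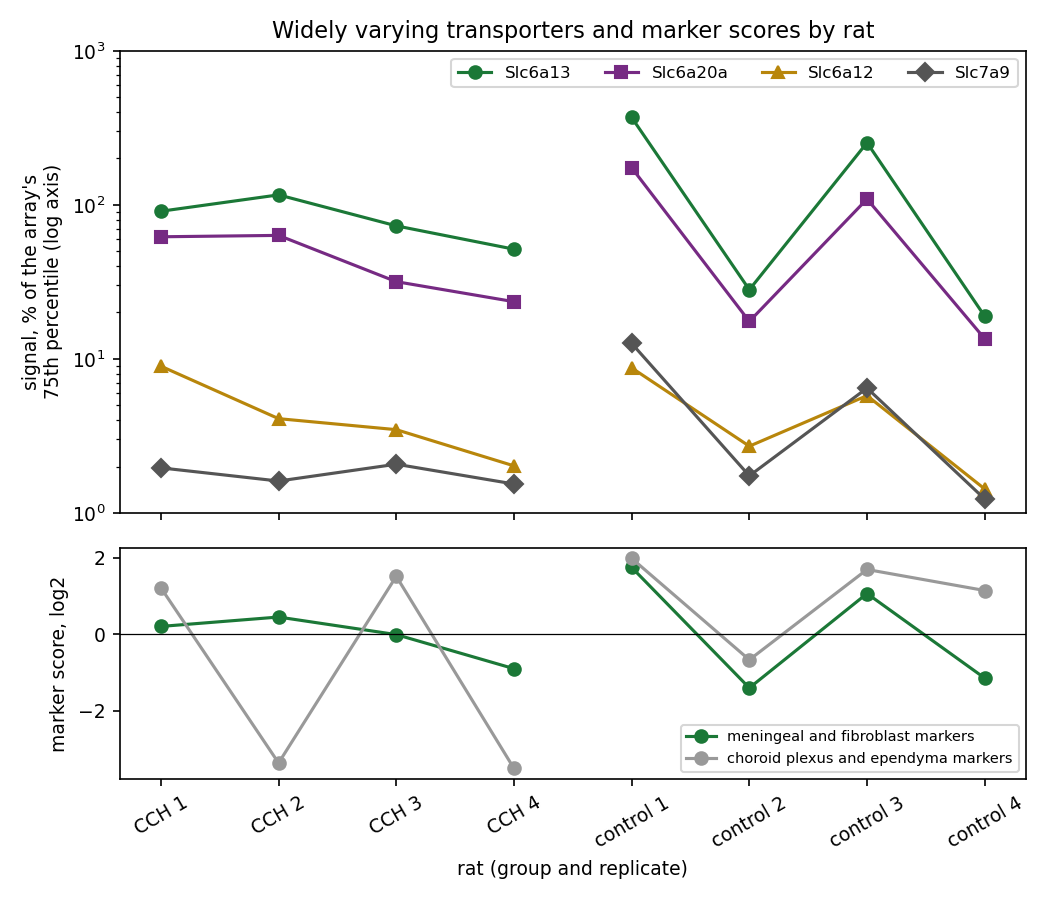
Upper panel, scaled signal (percent of the array's 75th percentile, log axis) of Slc6a13, Slc6a20a, Slc6a12 and Slc7a9 on each of the 8 arrays, CCH at left and control at right. Lower panel, mean log2 score of 15 meningeal and fibroblast markers and 13 choroid plexus and ependyma markers on the same arrays, and lines only link points of 1 gene or score. Slc6a13 runs from 18.9 to 369%, highest on control arrays 1 and 3, as does the meningeal score.

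Cationic amino acid, cystine and other SLC7 carriers gave no call. Slc7a3, the cationic amino acid carrier CAT3, stood at 85.4, 154, 147 and 152% on CCH arrays 1 to 4, against 239, 160, 162 and 168% on control arrays 1 to 4. The groups did not overlap, but CCH array 1 was far below and control array 1 far above the rest, and the other 6 arrays lay between 147 and 168%. Unscaled signals overlapped, at 752.7 to 1151 on CCH arrays and 902.1 to 1671 on control arrays. The difference was -0.46 ± 0.22 (SE; limma adjusted p = 0.371), and -0.25 without CCH array 1. Slc7a11 encodes xCT, which imports cystine for glutathione synthesis in exchange for glutamate, and stood at 3.39, 3.41, 3.21 and 7.87% on CCH arrays 1 to 4, against 22.3, 3.77, 4.72 and 8.42% on control arrays 1 to 4. Control array 1 was the highest, and without it the difference of -0.88 ± 0.55 (SE; limma adjusted p = 0.503) was -0.36. The gene named Slc7a3l1 differed by 0.21 ± 0.12 (SE; limma adjusted p = 0.455), and by -0.12 with normexp correction, after 4.74, 3.98, 3.66 and 4.25% on CCH arrays 1 to 4, against 3, 3.79, 3.83 and 3.76% on control arrays 1 to 4, with CCH array 1 highest, control array 1 lowest and the groups overlapping. Slc7a10, the astrocyte carrier Asc-1 for small neutral amino acids, had 2 probes of opposite sign, at 0.15 ± 0.13 and -0.14 ± 0.15 (SE). Slc7a4, Slc7a6 and Slc7a7 differed by 0.14, 0.11 and -0.08, and the Slc7a6os probes by 0.11 and 0.14, with adjusted p of 0.656 to 0.895.

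Several carriers had 1 CCH rat far from all others. Slc7a8 encodes LAT2, an exchanger of neutral amino acids, and stood at 219, 669, 736 and 758% on CCH arrays 1 to 4, against 605, 667, 719 and 683% on control arrays 1 to 4. CCH array 1 was well under the other 7 arrays. Slc38a4, a system A carrier best known from liver, stood at 5.65, 27, 27.2 and 24.9% on CCH arrays 1 to 4, against 26.2, 26.1, 24 and 36.7% on control arrays 1 to 4, again with CCH array 1 alone at the low end. Slc18a1, the vesicular monoamine carrier VMAT1, stood at 14.1, 39, 71.5 and 83% on CCH arrays 1 to 4, against 37.2, 31.1, 44.7 and 53.1% on control arrays 1 to 4, lowest on CCH array 1 and highest on CCH arrays 3 and 4. Slc6a6, the taurine carrier, stood at 62, 29, 24.7 and 21.2% on CCH arrays 1 to 4, against 19, 22.7, 25.6 and 24.1% on control arrays 1 to 4, and Slc1a5, the glutamine exchanger ASCT2, at 116, 36.3, 33.3 and 24.2% on CCH arrays 1 to 4, against 58.2, 24.8, 35.6 and 27.1% on control arrays 1 to 4. Both were highest on CCH array 1. The differences were -0.32 ± 0.37 for Slc7a8, -0.64 ± 0.49 for Slc38a4, 0.06 ± 0.51 for Slc18a1, 0.45 ± 0.31 for Slc6a6 and 0.32 ± 0.48 for Slc1a5 (SE; limma adjusted p between 0.538 and 0.970). Without CCH array 1 they were 0.11 for Slc7a8 and -0.156 for Slc1a5, both with the sign turned, and -0.079 for Slc38a4, 0.594 for Slc18a1 and 0.124 for Slc6a6. That array also had the highest 75th percentile of all 8, and the part of array brightness in these values was not tested. Slc7a8, Slc38a4, Slc18a1 and Slc1a5 were named for this pattern after their values were seen.

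**Figure D5:**
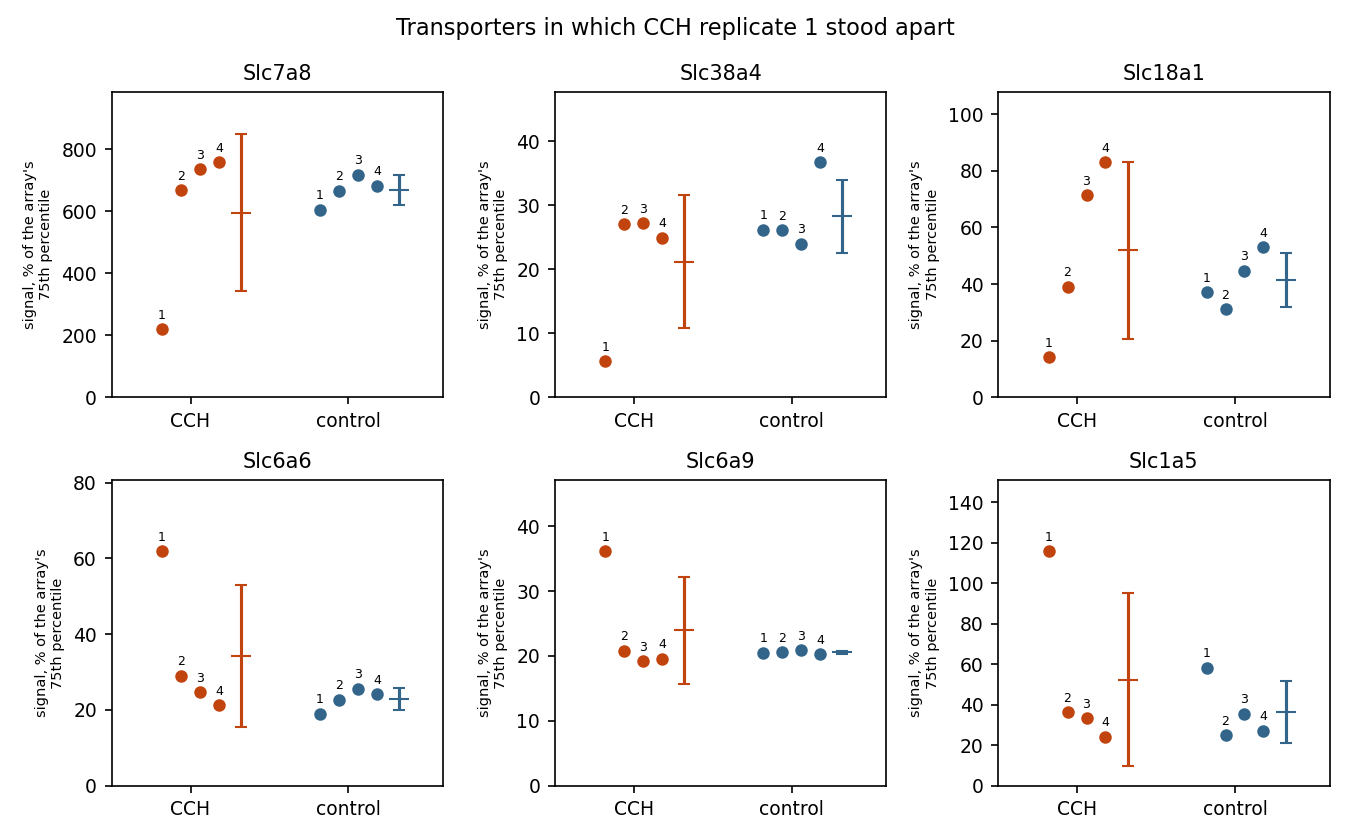
Scaled signal (percent of the array's 75th percentile, linear axis from 0) of 6 carriers for each CCH array (left, red) and control array (right, blue), numbered by replicate, with mean ± SD. CCH array 1 is lowest of all 8 for Slc7a8, Slc38a4 and Slc18a1 and highest of all 8 for Slc6a6, Slc6a9 and Slc1a5.

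The SLC38 glutamine carriers other than Slc38a7 gave no call. Slc38a1, a system A carrier that brings glutamine into neurons, stood at 26.7, 15.3, 18.6 and 19.5% on CCH arrays 1 to 4, against 13.4, 21.4, 17.1 and 18.7% on control arrays 1 to 4, a difference of 0.17 ± 0.20 (SE; limma adjusted p = 0.736; 0.02 without CCH array 1). CCH array 1 was the highest, and the groups overlapped. Slc38a2, a system A carrier induced when amino acids run short, stood at 283, 370, 420 and 400% on CCH arrays 1 to 4, against 471, 335, 400 and 339% on control arrays 1 to 4 on its brighter probe. Its groups overlapped, and the differences of its 2 probes were -0.07 ± 0.16 and -0.01 ± 0.12 (SE). Slc38a3, the system N carrier through which astrocytes release glutamine, stood at 99.5, 49.5, 57.2 and 49.5% on CCH arrays 1 to 4, against 69.9, 42.3, 64.4 and 55.5% on control arrays 1 to 4. CCH array 1 was the highest, and the difference of 0.10 ± 0.25 (SE; limma adjusted p = 0.891) was -0.13 without it. Slc38a6, a less studied member, had 3 probes that did not move together. Probe A_44_P149273 stood at 12.9, 20.4, 17.9 and 9.38% on CCH arrays 1 to 4, against 24.7, 17.4, 23.2 and 33.5% on control arrays 1 to 4 and differed by -0.73 ± 0.28 (SE; limma adjusted p = 0.263). Its control array 2 lay among the CCH arrays. Probe A_44_P295478 stood at 5.64, 4.79, 5.11 and 5.41% on CCH arrays 1 to 4, against 2.86, 6.35, 4.44 and 2.49% on control arrays 1 to 4 and differed by 0.47 ± 0.27 (SE; limma adjusted p = 0.461), and by 0.00 with normexp correction, control array 2 being the highest. The third differed by 0.05 ± 0.15 (SE). The system N carrier Slc38a5 and Slc38a9, a lysosomal carrier that signals arginine to mTORC1, differed by -0.04 ± 0.33 and -0.03 ± 0.14 (SE).

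The remaining tested carriers also had overlapping groups. Slc17a5, the lysosomal sialic acid exporter sialin, stood at 56.5, 45.7, 40.4 and 49.8% on CCH arrays 1 to 4, against 44.3, 39.1, 39.1 and 44.6% on control arrays 1 to 4, a difference of 0.20 ± 0.12 (SE; limma adjusted p = 0.489; 0.11 without CCH array 1). Slc6a17 and Slc6a15, neutral amino acid carriers of neurons, differed by 0.16 ± 0.11 and 0.08 ± 0.17 (SE), and Slc17a9, the vesicular ATP carrier, by 0.00 ± 0.39 (SE).

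Another 12 probes failed the detection filter and were not tested. They left 11 genes with no tested probe, namely Slc1a7, Slc6a2, Slc6a14, Slc6a18, Slc6a21, Slc7a2, Slc7a13, Slc7a15, Slc17a1, Slc17a2 and Slc17a3, and the other probe of Slc6a4. Among these Slc6a2, the noradrenaline carrier, was well above background on 2 CCH arrays and 1 control array, and Slc6a14, a broad amino acid carrier, on CCH array 3 alone. Slc17a3 was so on 1 CCH and 1 control array, Slc1a7 on 1 CCH array and the other Slc6a4 probe on 1 control array. The rest of the 12 were well above background on no array. Slc6a14 stood at 0.153, 0.164, 23.5 and 0.191% on CCH arrays 1 to 4, against 0.187, 0.173, 0.157 and 0.153% on control arrays 1 to 4, so that its single high value had no counterpart on any other array.

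Enzymes that make and break down the same amino acids were set beside the carriers, by 1 brightest tested probe per gene. Of 32 tested enzymes of amino acid metabolism and the transmitter cycle, 22 were higher and 10 lower in CCH, with a median log2 difference of 0.08, beside 0.02 over 9741 named genes, of which 5175 were higher. Limma called 0 of them, and 5 higher and 1 lower had an unadjusted p under 0.05, beside 15.4% of all tested probes (8.79% higher and 6.59% lower). Cdo1, the cysteine dioxygenase that leads to taurine, stood at 104, 120, 109 and 122% on CCH arrays 1 to 4, against 67.7, 71.8, 66.5 and 83.9% on control arrays 1 to 4, a difference of 0.65 ± 0.11 (SE; limma adjusted p = 0.0562) with groups that did not overlap. Amt, of the glycine cleavage system, differed by 0.25 ± 0.08 and Ass1, which makes argininosuccinate, by -0.55 ± 0.18 (SE; limma adjusted p of 0.180 and 0.200). Of 13 GABA and monoamine enzymes 8 were higher and 5 lower with a median of 0.13, and 0 were called by limma. An unadjusted p under 0.05 was found for 2 higher and 0 lower, beside the same shares of all tested probes, named or not. The dopamine hydroxylase Dbh, the acetylcholinesterase Ache and the GABA-making Gad2 differed by 0.52 ± 0.16, 0.25 ± 0.10 and -0.38 ± 0.19 (SE; limma adjusted p of 0.187, 0.270 and 0.381).

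Genes of the ATF4 and mTORC1 nutrient response, which senses amino acid supply, were lower for 12 and higher for 4 of 16 in CCH, with a median of -0.10 beside the 0.02 over all named genes. Limma called 0 of them, and 2 lower and 0 higher had an unadjusted p under 0.05. Of all tested probes 15.4% did so (8.79% higher and 6.59% lower). Atf3 stood at 32.6, 32.8, 30.6 and 39.3% on CCH arrays 1 to 4, against 44.7, 54.3, 40.9 and 48.7% on control arrays 1 to 4, with every CCH array below every control array, a difference of -0.48 ± 0.12 (SE; limma adjusted p = 0.124). Atf4 itself differed by -0.27 ± 0.10 and the translation repressor Eif4ebp1 by -0.23 ± 0.13 (SE; limma adjusted p of 0.259 and 0.455). Of 9 heavy chains and partners of carriers 3 were higher and 6 lower with a median of -0.18, 0 were called by limma and 0 had an unadjusted p under 0.05. The 9 included Ptgds, a prostaglandin synthase and no carrier partner by name, which was among the 6 lower at -0.62 ± 0.77 (SE). Slc3a1, the heavy chain of Slc7a9, differed by 0.20 ± 0.10 and the vesicle protein gene Sv2a by -0.18 ± 0.11 (SE). Cltrn, which traffics SLC6 amino acid carriers in kidney, stood at 55.5, 1.08, 106 and 1.01% on CCH arrays 1 to 4, against 166, 12.9, 140 and 89% on control arrays 1 to 4 and was lowest on CCH arrays 2 and 4, which were low in choroid plexus markers. The part of choroid plexus tissue in that value was not tested.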

How the data were processed

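Total RNA of 8 rat hippocampi was labelled with Cy3 and hybridised to 1-colour Agilent rat arrays, per the labels. Spot intensity was read by the authors in Feature Extraction 9.5, per the submitters' processing notes, and the deposited processed signal is a background-subtracted, detrended intensity that is not normalized between arrays, per the file headers. The deposited value table repeats it in rounded form (largest relative difference 0.00498). The grid names rn4, and symbols came from a GRCr8 table matched on RefSeq accessions, so no array coordinates are given.

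Each array's 75th percentile of non-control spots was subtracted on the log2 scale. Spots marked as outliers were left out, the spots of a probe were averaged, and probes were tested with limma 3.58.1 in R 4.3.3 (lmFit, eBayes, two-sided), checked on simulated data. Marker scores are means of log2 values centred per gene, compared by exact permutation. Nothing says that replicate numbers pair rats.

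Per-array values are given for called probes, the 8 probes per direction with the smallest p, the 4 widest ranging and 18 well-known carriers, of which 16 had a tested probe and 1 is not reported here. Up to 3 genes per pathway list are named. The members and lists were chosen with earlier results of these data known. The alternatives were normexp (offset 50, on the median spot signal, since no mean signal was given), quantile and median scaling, other detection filters, kept outlier spots, a replicate block, array weights, a choroid plexus covariate, and left-out arrays.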

Additional observations from a re-analysis of the deposited data

Results flagged for a closer look

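A group of 4 arrays was marked when its highest or lowest array stood apart by more than Dixon's 95% critical share of the group's whole log2 range. The 54 tested probes made 108 groups, of which 10 were marked. The CCH group of Slc6a8 probe A_42_P781006 had a missing value and could not be marked. Chance marks about 1 in 20, and 5 of the 10 were for CCH array 1.

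On CCH array 1 Slc38a4 was low at 5.65%, against 24.9 to 27.2% on the other CCH arrays (gap over range 0.943), Slc7a8 low at 219% against 669 to 758% (0.9) and Slc7a3 low at 85.4% against 147 to 154% (0.922). On the same array Slc6a9 was high at 36.2% against 19.2 to 20.8% (0.873) and Slc38a9 high at 9.6% against 6.58 to 6.92% (0.867).

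On CCH array 4 Slc7a11 was high at 7.87% against 3.21 to 3.41% (0.933), and the called Slc38a7 was low at 50.1% against 57.2 to 58% (0.901). On CCH array 3 Slc18a3 was low at 12.1% against 16.2 to 17% (0.856). On control array 1 Slc7a3 was high at 239% against 160 to 168% on the other control arrays (0.879), and Slc7a3l1 low at 3% against 3.76 to 3.83% (0.926).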

How the results depend on the processing

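With the feeds on separate slides, the planned slide block was not run, because it equals the feed term. Counts of called probes moved widely. Over all probes, 55 were called (24 higher and 31 lower), against 246 with normexp correction (69 higher and 177 lower), 29 with no detection filter, 209 with detection on all 8 arrays, 1293 with array weights, 1 with the choroid plexus covariate and 0 without both CCH arrays low in choroid plexus markers. Left-out single arrays gave 0 to 708 calls, the 708 without CCH array 1. Among the carriers 1 was called, against 0 with no detection filter, the choroid plexus covariate or both low arrays left out, 2 with array weights, and 0 to 2 with 1 array left out. The replicate block left 0 calls over all probes and 0 among the carriers, with Slc38a7 at -0.60 (adjusted p = 0.172). The numbers were not shown to pair the rats, since same-numbered arrays correlated at -0.005 to 0.246 in their deviations and 1 of 4 CCH arrays correlated best with its own number.

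Slc38a7 kept its direction in all alternatives, with adjusted p of 0.0166 to 0.314. It lost its call with no detection filter (adjusted p = 0.0673), the replicate block, the choroid plexus covariate and both low arrays left out. With 1 array left out, its call held only without CCH array 1. Signs turned in several carriers. Slc6a4, with the largest difference among the tested carrier probes at 1.20, was at -0.11 and Slc7a3l1 at -0.12 with normexp correction. Slc6a13 was at 0.37 and Slc6a20a at 0.28 with the choroid plexus covariate, and with 1 array left out they ran from -0.80 to 0.63 and from -0.75 to 0.49. With array weights Slc38a2 was at 0.0462, Slc38a3 at -0.11, Slc6a9 at -0.0168 and Slc18a2 at -0.0645. With 1 array left out they ran from -0.139 to 0.0505 for Slc38a2, -0.134 to 0.202 for Slc38a3, -0.0509 to 0.255 for Slc6a9, -0.042 to 0.519 for Slc18a2 and -0.147 to 0.0194 for Slc32a1. The cause of these shifts was not tested.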
